A study of Torulaspora microellipsoides with 8 samples.

Results

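The genes described here make and remodel the glucan and chitin of the cell wall in Torulaspora microellipsoides, a budding yeast that forms 2 cell types, white and opaque. They were chosen by name from a list of 10 genes of Saccharomyces cerevisiae, namely FKS1, GSC2, KRE6, GAS1, CHS1, CHS2, CHS3, CRH1, BGL2 and EXG1. A transcribed region carries one of these names where that S. cerevisiae protein was its best match. The list was found under 9 names in 13 regions, of 4464 regions and 3306 names in the series, and no region carried the name GSC2. Of the 13 regions, 4 were shorter than 100 bp, and 12 held enough counts to be tested.

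The series compared mRNA of white cells with mRNA of opaque cells, with 3 libraries from each. All 6 cultures had the same strain background and received no treatment. They were grown from an OD600 of 0.05 to 1.0, in log phase, at 23 °C in yeast extract and glucose. White cells were haploid by the study's methods, and all cultures came from 1 strain, so the 3 libraries of a cell type are repeat cultures and not separate isolates. The paper reports that opaque cells were larger and held more DNA than white cells. Cell type therefore cannot be told apart from ploidy or cell size in these libraries.

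The yeast wall is a network of beta-1,3-glucan to which beta-1,6-glucan, chitin and mannoproteins are attached. A synthase in the plasma membrane, with Fks1 as its catalytic subunit and the GTPase Rho1 as its activator, spins the beta-1,3-glucan, and enzymes outside the membrane such as Gas1, Bgl2 and Exg1 elongate, branch or trim it. Kre6 is needed for beta-1,6-glucan. Chitin is made by separate synthases, of which in S. cerevisiae Chs1 repairs the wall after division, Chs2 lays down the primary septum and Chs3 makes the chitin ring of the bud neck and the chitin of the side wall. Crh1 joins chitin to glucan. These roles are known from S. cerevisiae.

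The libraries held between 24948791 and 50126043 counts. Between 22.9 and 23.4% of the counts fell on the 10 most abundant regions in white libraries, and 17.6 to 18.2% in opaque libraries. Values are given as CPM, the counts of a region relative to the size of its library, after TMM scaling, a correction for differences in library composition, and a fold change is opaque against white. All values are relative to the mRNA of a library, so less of a transcript in each cell and fewer cells that carry it cannot be told apart. As a check of the labels, the most abundant regions of all 10 marker genes moved as the labels say. These markers were named by the study from these samples or taken from the largest changes in them, so the check is not independent evidence.

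Of the 9 genes, FKS1 and CHS3 were higher in opaque cells and EXG1 and CRH1 were higher in white cells (adjusted p from 4.7e-10 to 3.1e-04, edgeR's quasi-likelihood test with Benjamini-Hochberg adjustment over 4404 regions). The other 5, CHS1, CHS2, BGL2, GAS1 and KRE6, did not pass the test, and their log2 fold changes lay between -0.17 and 0.03. Thus 44.4% of the genes were called, against 78.5% of all 3289 gene names tested (41.1% higher in opaque and 37.4% higher in white cells) and 74.2% of all regions (36.6% and 37.6%). The libraries of the cell types did not overlap for 6 of the 9 genes, against 81.5% of all names and 77.8% of all regions. The median log2 fold change was -0.11 over the 9 genes and -0.02 over all tested regions. The count of genes higher in white cells depended on the scaling. With upper-quartile scaling or with total counts alone it was 5, since BGL2, GAS1 and KRE6 then passed, and 2 genes were higher in opaque cells. These scalings lowered the median of all regions by 0.12 and by 0.16 on the log2 scale.

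**Figure D1:**
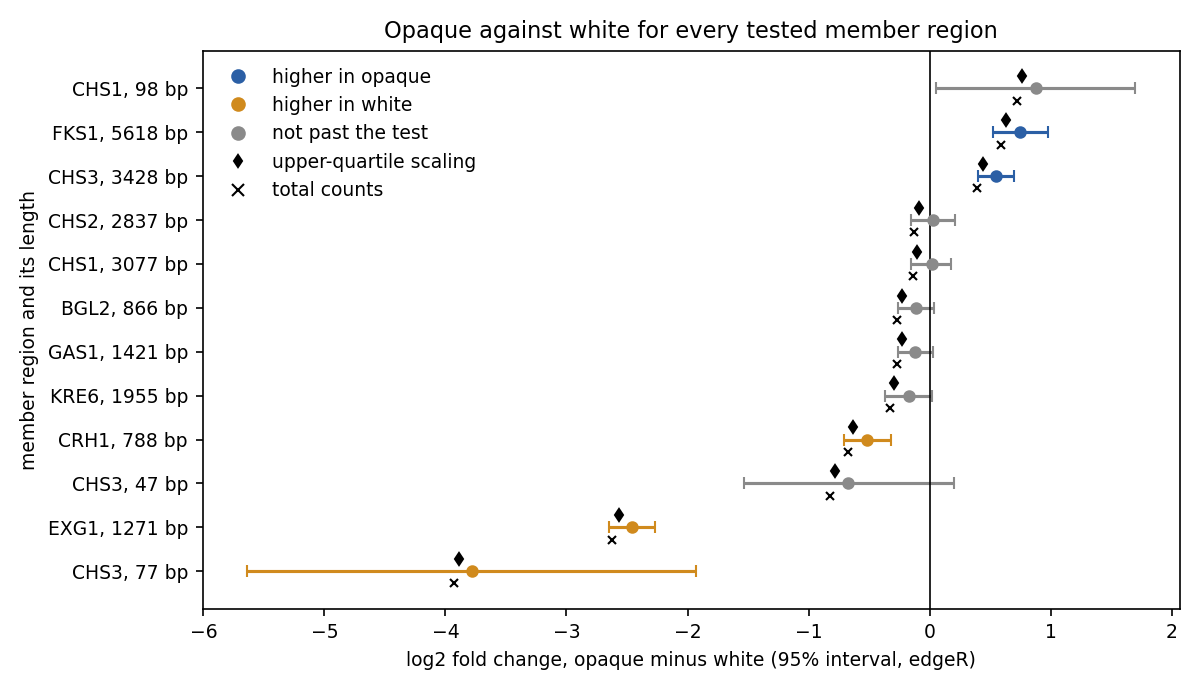
Log2 fold change, opaque minus white, of the 12 tested regions named for wall synthesis genes, with the 95% interval from edgeR as bars. Diamonds give the value with upper-quartile scaling and crosses the value with total counts alone. EXG1 lies at -2.46, while CHS1, CHS2, BGL2, GAS1 and KRE6 lie between -0.17 and 0.03.

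FKS1, the catalytic subunit of beta-1,3-glucan synthase, was transcribed from a region of 5618 bp on scaffold 4 (526147 to 531765, minus strand) with 86.19% identity to its S. cerevisiae match, the highest among the 13 regions. Its level was 505, 395 and 540 CPM in white libraries 1, 2 and 3, and 784, 825 and 810 CPM in opaque libraries 1, 2 and 3. All opaque libraries lay above all white libraries, and white library 2 was the lowest. FKS1 was 1.68-fold higher in opaque cells (log2 fold change 0.75 ± 0.1 (SE), 95% interval 0.52 to 0.98, n = 3 libraries each, adjusted p = 6.6e-05, edgeR). The spread between white libraries (SD 75.4 CPM) was larger than that between opaque libraries (SD 20.8 CPM). In S. cerevisiae, GSC2 encodes the alternate catalytic subunit used in sporulation and stress. Since names were given by the best match, the FKS1 name does not tell whether a region corresponds to FKS1, to GSC2 or to both. The ratio of GSC2 to FKS1 could not be computed.

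EXG1, the major exo-beta-1,3-glucanase, had the largest change of the 9 genes. Its region of 1271 bp on scaffold 8 (475331 to 476602, minus strand, 75.94% identity) gave 1930, 1724 and 1877 CPM in white libraries and 305, 365 and 336 CPM in opaque libraries. The cell types were far apart, with means of 1844 ± 107 and 335 ± 30.3 CPM (SD, n = 3 each). EXG1 was 5.5-fold lower in opaque cells (interval 4.83 to 6.26, log2 fold change -2.46 ± 0.084 (SE), adjusted p = 4.7e-10, edgeR). It was the only one of the 9 genes past a 4-fold change, which 5.25% of all regions reached in the white direction. EXG1 alone held 30.6 to 31% of the counts of the 9 genes in white libraries and 6.71 to 7.9% in opaque libraries. The 9 genes together held 0.631% ± 0.0477 of all counts in white and 0.428% ± 0.0139 in opaque libraries (SD, n = 3 each), and without EXG1 these shares were 0.436% ± 0.0315 and 0.397% ± 0.0127.

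BGL2 and GAS1, which also act on beta-1,3-glucan outside the membrane, did not pass the test. BGL2, an endo-glucanase and glucan-branching transferase of the wall, lies on scaffold 10 (24161 to 25027, plus strand, 81.31% identity). It gave 1487, 1313 and 1360 CPM in white and 1281, 1301 and 1271 CPM in opaque libraries. The groups did not overlap, but the gap between the closest libraries was small, and the difference of -0.11 on the log2 scale (interval -0.26 to 0.04) did not pass the test (adjusted p = 0.16, edgeR).

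GAS1, a GPI-anchored transferase that elongates beta-1,3-glucan, lies on the same scaffold (40064 to 41485, minus strand, 76.42% identity). It gave 1401, 1319 and 1360 CPM in white and 1286, 1291 and 1190 CPM in opaque libraries. Here too the groups did not overlap, and the difference of -0.12 on the log2 scale (interval -0.26 to 0.03) did not pass (adjusted p = 0.12, edgeR). With upper-quartile scaling the values of BGL2 and GAS1 were both -0.23 (adjusted p = 0.0081 and 0.0052, edgeR), and with total counts both were -0.27 (adjusted p = 0.0036 and 0.0027, edgeR), which includes the shift of all regions given above.

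KRE6, required for beta-1,6-glucan, was read from 1955 bp on scaffold 4 (973050 to 975005, plus strand, 70.38% identity). It gave 244, 243 and 222 CPM in white and 239, 200 and 189 CPM in opaque libraries, so that opaque library 1 lay within the white range. The log2 fold change was -0.17 (interval -0.37 to 0.02, adjusted p = 0.095, edgeR). Leaving out opaque library 1 moved it past the threshold at -0.30 (adjusted p = 0.0045, edgeR), as it did with upper-quartile scaling at -0.29 (adjusted p = 0.01, edgeR).

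CRH1, the transglycosylase that links chitin to glucan, lies on scaffold 1 (1262879 to 1263667, minus strand, 788 bp, 74.14% identity). It gave 250, 245 and 249 CPM in white and 194, 178 and 148 CPM in opaque libraries. The white libraries were nearly equal and the opaque libraries, all lower, were spread more widely. CRH1 was 1.43-fold lower in opaque cells (interval 1.25 to 1.64, log2 fold change -0.52 ± 0.09 (SE), adjusted p = 3.1e-04, edgeR).

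The chitin synthases differed from each other. CHS3, which in S. cerevisiae makes most wall chitin, is a region of 3428 bp on scaffold 5 (396515 to 399943, minus strand, 73.02% identity). It gave 80.1, 77.9 and 80.6 CPM in white and 111, 126 and 112 CPM in opaque libraries. Every opaque library lay above every white library. CHS3 was 1.47-fold higher in opaque cells (interval 1.32 to 1.62, log2 fold change 0.55 ± 0.067 (SE), adjusted p = 1.8e-05, edgeR).

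CHS2, the septum synthase, lies 2241 bp from CHS3 on the same strand of scaffold 5 (402185 to 405022, 74.95% identity). It gave 172, 142 and 168 CPM in white and 153, 170 and 169 CPM in opaque libraries. The groups overlapped and differed by 0.03 on the log2 scale (interval -0.15 to 0.21, adjusted p = 0.75, edgeR).

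CHS1, the repair synthase, lies on scaffold 1 (122947 to 126024, plus strand, 65.31% identity). It gave 167, 166 and 189 CPM in white and 189, 171 and 168 CPM in opaque libraries. The groups overlapped again and differed by 0.02 on the log2 scale (interval -0.15 to 0.18, adjusted p = 0.84, edgeR). The intervals of CHS1 and CHS2 leave room for a change of about the size of their bounds in either direction, and both point values became negative under upper-quartile scaling (-0.10 and -0.09) and under total-count scaling (-0.14 and -0.13).

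Within a library, ratios of counts per kb do not depend on the scaling between libraries. The log2 ratio of CHS3 to CHS1 was -1.21, -1.23 and -1.38 in white and -0.93, -0.60 and -0.75 in opaque libraries, a difference of 0.51. That of CHS3 to CHS2 differed by 0.50, and that of CHS2 to CHS1 by 0.01. The libraries did not overlap for either ratio with CHS3 and overlapped for CHS2 to CHS1. CHS3 made up 16.3 to 18% of the summed CPM per kb of the chitin synthases in white libraries and 22 to 24.2% in opaque libraries. The exact two-sided permutation test gave p = 0.1 for both ratios with CHS3, the smallest p that 3 libraries against 3 allow, and 0.14 after adjustment over the 7 ratios.

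**Figure D2:**
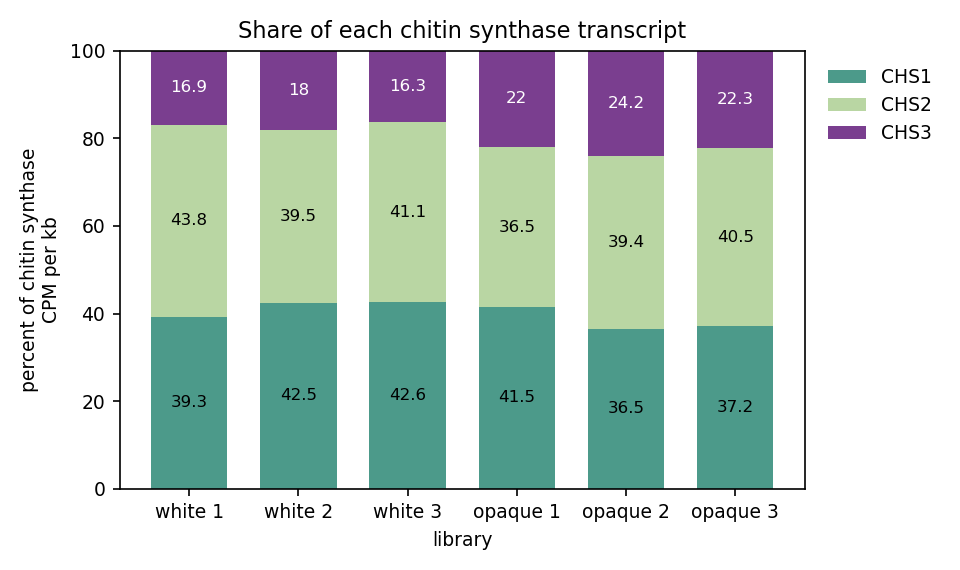
Share of CHS1, CHS2 and CHS3 in the sum of their CPM per kb, in percent, as 1 stacked bar for each of the 6 libraries. CHS3 takes 16.3 to 18% in the white and 22 to 24.2% in the opaque libraries.

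Of the other ratios, EXG1 to BGL2 was 5.11-fold lower in opaque libraries, CRH1 to CHS3 was 2.09-fold lower and KRE6 to FKS1 was 1.92-fold lower. None of these 3 overlapped between cell types (exact permutation p = 0.1, adjusted 0.14). GAS1 to BGL2 differed by -0.01 on the log2 scale and overlapped (exact permutation p = 0.6, adjusted 0.7).

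Levels per kb were used to order the genes, with the length of the matched region and not of the whole assembled transcript as the divisor. In white libraries BGL2 (1601 CPM per kb) and EXG1 (1450) were the most abundant and their libraries overlapped. GAS1 (957), CRH1 (314), KRE6 (121) and FKS1 (85.5) followed without overlap. CHS2 (56.6) and CHS1 (56.5) could not be ordered, and CHS3 (23.2) was the lowest.

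In opaque libraries BGL2 (1483 CPM per kb) and GAS1 (883) came first. EXG1 (264) and CRH1 (220) overlapped, FKS1 (143) now stood above KRE6 (107), CHS2 (57.8) and CHS1 (57.2) again overlapped, and CHS3 (34.0) was again the lowest. EXG1 moved from rank 116 to rank 491 of the 3624 regions of at least 200 bp, while BGL2 moved from 112 to 120 and GAS1 from 173 to 179.

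**Figure D3:**
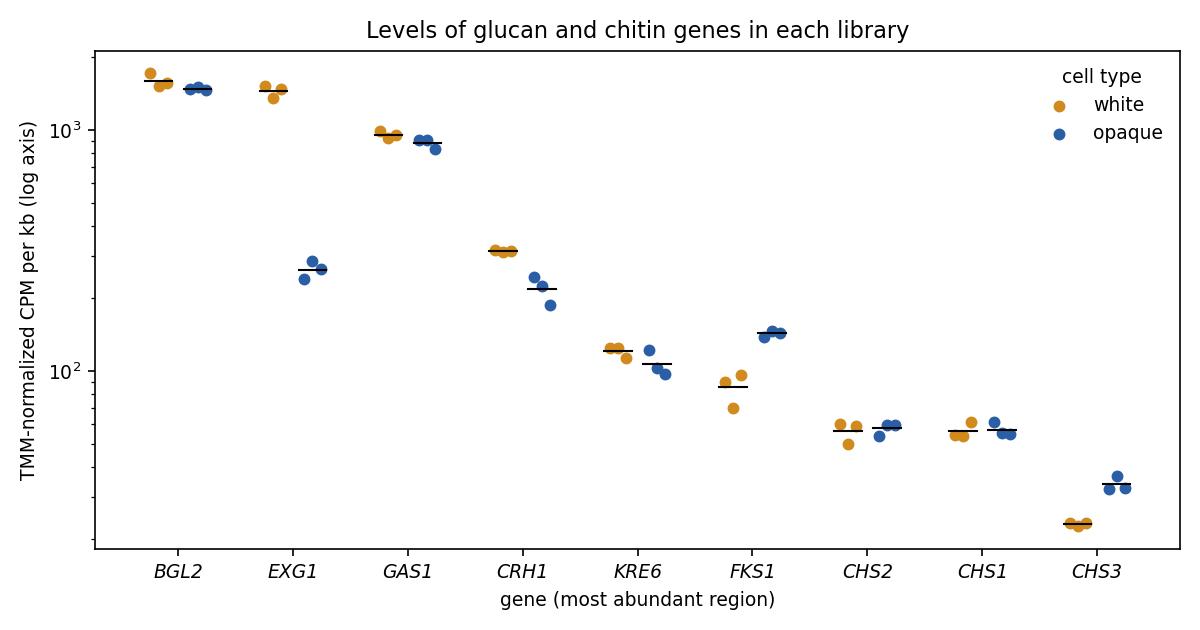
TMM-scaled CPM per kb of the most abundant region of each of the 9 wall synthesis genes, on a log axis, with 1 point for each of the 3 white and 3 opaque libraries and a line at the mean. EXG1 lies at 1357 to 1518 CPM per kb in white and 240 to 287 in opaque libraries, FKS1 and CHS3 lie higher in every opaque library, and the points of CHS1 and CHS2 overlap.

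The 4 short regions held few counts and low identity to their matches, between 40.62 and 56.25%, so they cannot be taken as copies of the genes. A region of 77 bp with the CHS3 name on scaffold 2 (1498018 to 1498095, 42.31% identity) had 10, 21 and 21 counts in white and 0, 0 and 3 counts in opaque libraries. Over the libraries these were 52 and 3 counts, a ratio of 17.4 relative to total library counts, without TMM (interval 5.65 to 87.3, counting error only). It passed the test at -3.78 ± 0.84 on the log2 scale (SE, adjusted p = 0.0017 by edgeR), opposite in direction to the CHS3 region of 3428 bp, and the value was -2.89 without opaque library 1. Without opaque library 3 the opaque counts were all 0, and the fitted -7.13 then depends on the prior count and sets no bound.

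This short region lies 283 bp from a DSE4 region, which encodes a daughter-cell glucanase and fell by 4.95 on the log2 scale. A region of 47 bp named CHS3 (18, 17 and 22 counts in white, 19, 9 and 5 in opaque libraries) and a region of 98 bp named CHS1 (8, 17 and 27 against 39, 19 and 26) did not pass (adjusted p = 0.15 and 0.053, edgeR). The CHS1 region of 98 bp passed without white library 3 (adjusted p = 0.025, edgeR). A region of 95 bp named FKS1 held 6 to 15 counts a library and was not tested. Among all regions under 200 bp, 54.7% were called.

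The 2 nearest regions on each side of every gene were read as well, with a further region of a name already taken passed over. Only around EXG1 were all 4 called in 1 direction, higher in white cells. These were ULS1 (log2 fold change -0.78), HRI1 (-0.55), IES4 (-1.01) and YIL169C (-4.81), with adjusted p from 1.9e-07 to 5.8e-05 (edgeR). The region named IES4 was only 95 bp long and may not stand for the gene. Within 15 kb of EXG1, 5 of the 13 other tested regions were higher in opaque cells, 7 were higher in white cells and 1 did not pass. The counts of neighbours and of this window are to be read against all regions. Of these, 36.6% were called higher in opaque and 37.6% higher in white cells. CHS1, which did not pass, lies between genes that changed. These genes were chosen after their values were seen. FMP45 on its left, 5489 bp away, fell by 9.49 on the log2 scale, and DTD1 and DUG3 on its right rose by 1.20 and 1.88.

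**Figure D4:**
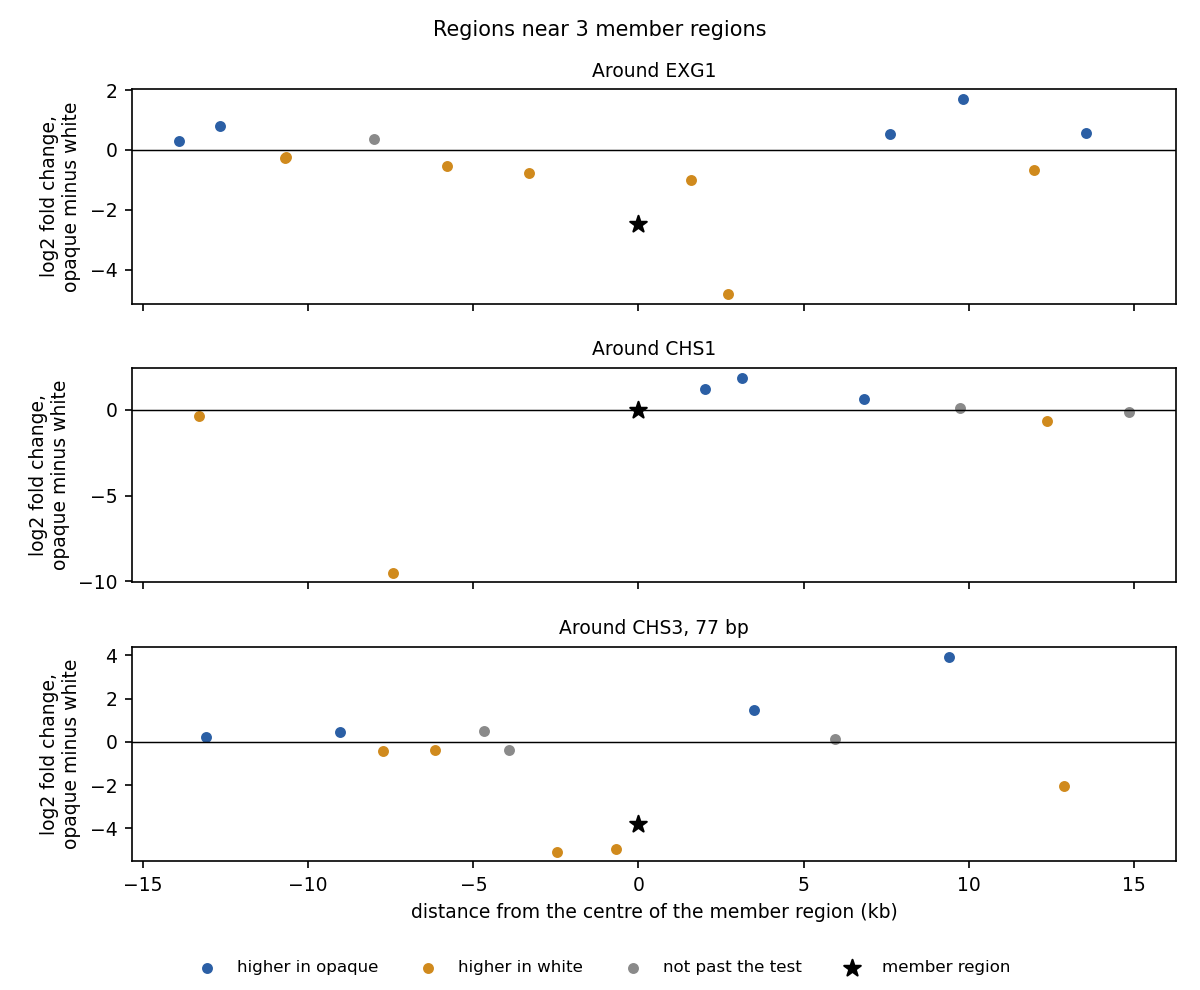
Log2 fold change, opaque minus white, of the tested regions within 15 kb of EXG1, of CHS1 and of the CHS3 region of 77 bp (stars), against the distance in kb. Around EXG1 the nearest regions lie below 0 and 5 of 13 others are higher in opaque cells, against 36.6% of all regions. CHS1 at 0.02 has FMP45 at -9.49 on one side and DUG3 at 1.88 on the other.

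Genes of the wall were also read from 12 lists, with the most abundant region of each name. For SCW10, BIG1, BCH1, PFA4, CDA1 and WSC2 that region was under 200 bp, with 30.0 to 45.95% identity. These regions cannot be taken as the genes, although the counts of the lists include them. They are named here after their values were seen. The lists hold the 9 genes above, which the count of each list includes. Of the 124 other genes listed, 68 were tested, of which 17 were higher in opaque cells, 35 higher in white cells and 16 did not pass, so that 76.5% were called. This is to be read against 78.5% of all names called, 41.1% higher in opaque and 37.4% higher in white cells, as are the counts of each list. With upper-quartile scaling the split of the 68 was 12 higher in opaque and 41 higher in white cells, and with total counts it was 12 and 43.

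FKS1 rose while several of its regulators were lower in opaque cells. Of 7 tested genes of the synthase and its Rho1 regulators, 2 were higher in opaque and 4 higher in white cells, with a median of -0.23. With upper-quartile scaling or total counts FKS1 was the only one higher in opaque cells. RHO1, the activating GTPase, was 355 ± 4.11 CPM in white and 302 ± 4.22 CPM in opaque libraries (log2 fold change -0.23, adjusted p = 0.0033, edgeR), although a second RHO1 region of 557 bp was higher in opaque cells (0.66). TUS1, an exchange factor that activates Rho1, fell by 1.05 on the log2 scale. LRG1, a GTPase-activating protein that turns Rho1 off, fell by 0.80. FKS3, a relative of FKS1 with a role in the spore wall of S. cerevisiae, fell by 0.92 and lies 480 bp from GAS1.

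Among the 10 tested remodelling enzymes, 1 was higher in opaque cells, 5 were higher in white cells and 4 did not pass, with a median of -0.26. DSE4, a glucanase that separates daughter from mother, went from 935 ± 32.0 to 27.8 ± 4.59 CPM, or -5.07 on the log2 scale (adjusted p = 4.8e-11, edgeR). SCW11, a related wall protein of daughter cells, fell by 2.85. GAS3 and GAS5 belong to the family of GAS1 and moved in opposite directions, with GAS3 lower by 1.84 on the log2 scale and GAS5 going from 162 ± 14.5 to 423 ± 14.1 CPM (log2 fold change 1.38, adjusted p = 2.1e-08, edgeR). With upper-quartile scaling 8 of the 10 were higher in white cells, and without white library 2 the count higher in opaque cells was 2.

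Of 9 tested genes of beta-1,6-glucan synthesis, 4 were higher in opaque cells, 2 higher in white cells and 3 did not pass, with a median of -0.10. KEG1, a partner of Kre6, and KRE9, a secreted protein needed for this glucan, rose by 0.93 and 0.49. ROT1 rose by 0.19, which did not pass with upper-quartile scaling (0.08, adjusted p = 0.22, edgeR). ROT2 and CWH41, glucosidases that trim glycans in the endoplasmic reticulum, fell by 1.43 and 0.57. With upper-quartile scaling 2 of the 9 were higher in opaque cells and 4 were higher in white cells. Without opaque library 1 the count higher in opaque cells was also 2, and ROT1 did not pass (0.16, adjusted p = 0.057, edgeR).

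Among 9 tested genes of chitin synthases and their traffic, 4 were higher in opaque cells, 3 higher in white cells and 2 did not pass, with a median of 0.03. These calls include BCH1, higher in white cells, and PFA4, higher in opaque cells. Their regions of 113 and 74 bp had 36.84 and 36.0% identity and means of at most 1.08 and 0.917 CPM. CHS7, which lets Chs3 leave the endoplasmic reticulum, rose with CHS3, from 33.9 ± 1.45 to 61.5 ± 5.91 CPM (log2 fold change 0.85, adjusted p = 2.9e-06, edgeR). The exomer, the coat that carries Chs3 to the surface, was divided. CHS5 fell by 0.39 and BCH2 by 0.69, while BUD7 rose by 0.22, which did not pass with upper-quartile scaling (0.10, adjusted p = 0.13, edgeR).

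The enzymes that make the sugar nucleotides for chitin and glucan were read next. GFA1, which catalyses the first step towards UDP-N-acetylglucosamine for chitin, went from 362 ± 43.5 to 628 ± 29.8 CPM (log2 fold change 0.79, adjusted p = 9.1e-06, edgeR), while QRI1, at the last step, fell by 0.28 and PCM1 had a value of -0.14 (adjusted p = 0.072, edgeR). PCM1 passed in 7 of 14 alternatives, among them upper-quartile scaling (-0.26, adjusted p = 0.0035, edgeR) and the fit without white library 3 (-0.19, adjusted p = 0.032, edgeR). UGP1, which makes the UDP-glucose used for glucan as well as for glycogen and trehalose, went from 1594 ± 80.4 to 342 ± 10.1 CPM (log2 fold change -2.22, adjusted p = 2.2e-10, edgeR). Of the 3 tested genes of chitin breakdown and deacetylation, CTS1, the chitinase of cell separation, fell from 436, 429 and 420 CPM in white to 51.8, 48.1 and 50.1 CPM in opaque libraries (log2 fold change -3.10, adjusted p = 2.6e-11, edgeR), and CTS2 (0.03) and CDA1 (-0.56) did not pass. CDA1 was read from only 86 bp with 36.67% identity, at 0.55 CPM in white and 0.384 CPM in opaque cells. Its interval was wide (-1.67 to 0.55).

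Of 10 tested genes of cell wall integrity signalling, 4 were higher in opaque cells, 5 higher in white cells and 1 did not pass, with a median of -0.03. The sensor WSC4 fell by 4.21, and its region had 30.54% identity to its match. The kinases divided, with PKC1 and MKK2 higher by 0.50 and 0.72 and BCK1 lower (log2 fold change -0.45), as was the transcription factor SWI6 (-0.55). The kinase SLT2 (-0.35, adjusted p = 7.6e-04, edgeR) and the sensor MID2 (-0.28, adjusted p = 0.0059, edgeR) were also lower in opaque cells. The sensor SLG1 (0.37) and the transcription factor SWI4 (0.46) were higher (adjusted p = 0.0015 for each, edgeR). SLT2, MID2, SLG1 and SWI4 are named after their values were seen. All 5 tested GPI and PIR wall proteins of 24 listed were called, 4 of them higher in white cells, where 78.5% of all names were called and 37.4% were higher in white cells. CWP1 (log2 fold change -3.96), TIR3 (-2.17), PIR1 (-1.92) and CCW12 (-0.69) were lower in opaque cells, and YPS7, a protease of the wall, was higher (0.88). CCW12 was read from only 134 bp, with 80.0% identity. In opaque libraries YPS7 ranged from 65.2 to 116 CPM.

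CHS2 works with the contractile ring, whose genes were read beside it. Of 11 tested partners in cytokinesis, none was higher in opaque cells, 7 were higher in white cells and 4 did not pass, with a median of -0.37. The 63.6% called compare with 78.5% of all names, of which 41.1% were higher in opaque and 37.4% higher in white cells. The count of 0 higher in opaque cells by edgeR was also 0 at an unadjusted p under 0.05 and 0 with DESeq2. MYO1, the myosin of the ring, fell by 0.65, the mitotic exit kinases CDC15 and DBF2 by 0.63 and 0.61, CYK3 by 0.44 and the septin-binding BNI5 by 0.37. In the mitotic CLB2 cluster, the group of genes to which CHS2 belongs in S. cerevisiae, 2 of 11 were higher in opaque cells, 5 higher in white cells and 4 did not pass, with a median of -0.18. These counts rested on single libraries and on the scaling. The count higher in opaque cells was 1 without white library 2, white library 3, opaque library 1 or opaque library 2, and 1 with upper-quartile scaling, total counts or summed counts, and the count higher in white cells was 8 without white library 2 and with total counts. AMN1 (log2 fold change -1.98), CDC5 (-0.39) and BUD4 (-0.32) were lower in opaque cells, and CDC20 was higher (0.77).

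**Figure D5:**
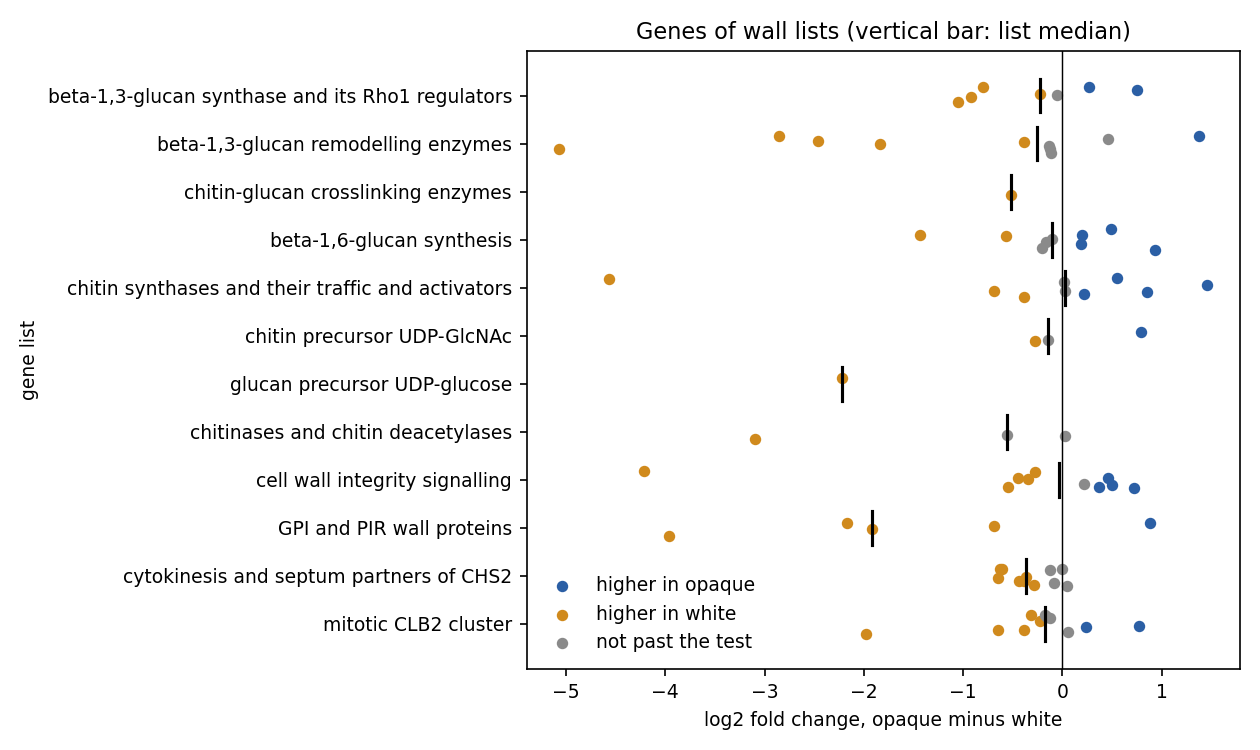
Log2 fold change, opaque minus white, of each tested gene in the 12 wall lists, coloured by its call, with the list median as a vertical bar. Medians run from -2.22 for the single UDP-glucose gene to 0.03 for chitin synthases and their traffic, and no cytokinesis gene is called higher in opaque cells.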

How the data were processed

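Whole-number counts per transcribed region were used as the authors deposited them, for 3 white and 3 opaque libraries. According to the study's methods and processing notes, mRNA libraries made with a stranded kit were sequenced as read pairs, aligned with STAR to the CLIB830T genome, assembled with cufflinks, and each transcript was named by BLAST for its best S. cerevisiae match. Versions, and whether strand or both reads of a pair were used in counting, are not given in the sources used here, so antisense reads cannot be told apart. The labels give a culture volume of 25 ml at 200 rpm, and the methods give larger, faster cultures. The deposited fraction of each region covered by reads was used only as a check. The percent identity is the authors' BLAST value, deposited in the annotation. The 2 genomic DNA samples were not analysed here, and no sequence was used. Coordinates are those of the annotation.

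Counts were fitted with edgeR 4.0.16 in R 4.3.3 (TMM, filterByExpr, robust quasi-likelihood, cell type as the only factor), with adjusted p under 0.05 over 4404 regions as the threshold. The common biological coefficient of variation was 0.0847. Standard errors are the size of the log2 fold change divided by the square root of F. No libraries were duplicates by a chi-square test of their counts. In simulated data of this comparison with 4393 regions, edgeR found 100 of 100 regions changed by 1 and 100 of 100 changed by 2 on the log2 scale, and 12 of its 212 calls were false. The changed regions were few, well above the lowest counts and balanced in direction, and all regions shared a dispersion. The simulation therefore does not test the scaling, the short regions or smaller changes. Ratios within a library used counts summed over the regions of a name and exact permutation tests. Intervals on raw counts cover counting error only. The edgeR p-values set the difference between cell types against the spread between these repeat cultures, moderated over all regions. Exact permutation p-values come from reassigning these libraries between the cell types.

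The members and lists were chosen with earlier results of these data known. Each member region is named. In each list up to 5 genes are named, those with the smallest adjusted p whose mean reached 10 CPM in white or opaque cells, or all where 5 or fewer were tested. Neighbours are named where all 4 around a member were called in one direction, and others are said to be chosen after their values were seen. Alternatives were upper-quartile scaling, total counts, DESeq2 1.42.0, no filter, at least 10 counts in every library, a replicate block, counts summed per name, regions under 200 bp left out, and each library left out.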

Additional observations from a re-analysis of the deposited data

How the results depend on the processing

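FKS1, CHS3 (3428 bp), CRH1 and EXG1 passed in 14 of 14 alternatives, with log2 fold changes of 0.59 to 0.83, 0.39 to 0.57, -0.67 to -0.43 and -2.62 to -2.41. The number of genes higher in white cells rose from 2 to 5 with upper-quartile scaling, total counts or counts summed per name. With upper-quartile scaling, total counts and summed counts in turn, values that then passed were -0.23, -0.27 and -0.16 for BGL2, -0.23, -0.27 and -0.16 for GAS1, and -0.29, -0.33 and -0.22 for KRE6. With at least 10 counts in every library GAS1 passed at -0.15. CHS1 and CHS2 never passed, and their sign turned with upper-quartile scaling (-0.10 and -0.09), total counts (-0.14 and -0.13), at least 10 counts (-0.02 and -0.005) and summed counts (-0.03 and -0.02), and for CHS1 without regions under 200 bp (-0.01). CTS2 turned under the first 4 of these (-0.08, -0.12, -0.002 and -0.01). The cause of these changes was not tested beyond the shift of all regions by each scaling.

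With each library left out in turn, the lowest and highest values were -0.05 and 0.07 for CHS1, -0.05 and 0.06 for CHS2, -0.15 and -0.08 for BGL2 (past the test without white library 2, -0.15, adjusted p = 0.046, edgeR), -0.30 and -0.12 for KRE6 (past without opaque library 1), -0.04 and 0.11 for the log2 ratio of CHS2 to CHS1, and -0.04 and 0.02 for that of GAS1 to BGL2. CTS2 lay between -0.01, without opaque library 2, and 0.05, without opaque library 3. With a library left out, 2 genes were higher in opaque cells and 2 or 3 higher in white cells.

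The deviations of same-numbered libraries had correlations of -0.036, -0.036 and 0.181, and those of differently numbered libraries ran from -0.192 to 0.209. These values show no pairing of cultures by replicate number, but they cannot exclude it. With the replicate block 3259 regions were called against 3267, 3 of the genes were higher in white cells, KRE6 passed at -0.18 (adjusted p = 0.047, edgeR), and the CHS1 region of 98 bp passed at 0.96 (adjusted p = 0.042, edgeR). Depth limits the 4 short regions, which held at most 39 counts in a library. The 3 of them that were tested had no value with at least 10 counts in every library, with summed counts or without short regions.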

Other observations

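Beyond the most abundant region of each name, and apart from the 9 genes, 24 further regions carried the name of a listed wall gene, from 22 genes. Of these, 15 had the same call as the most abundant region of the name, 9 had another call, and 4 of the 9 were called in the opposite direction. A UGP1 region of 128 bp with 34.88% identity was 1.77 higher in opaque cells on the log2 scale (adjusted p = 1.9e-08, edgeR), and a GFA1 region of 284 bp with 22.22% identity, 1516 bp from KRE6, fell by 0.37 (adjusted p = 0.01, edgeR). Both were chosen after their values were seen.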
